A study of Sus scrofa with 9 samples.

Results

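Transcripts of 9 transcription factor genes that direct osteoblast and chondrocyte differentiation were followed in porcine valvular interstitial cells (PVICs): RUNX1, RUNX2, RUNX3, SP7, MSX1, MSX2, DLX5, SOX9 and SOX5. They were found by symbol among the 19534 gene symbols of the deposited count table, and each had 1 row. PVICs were isolated from aortic valve leaflets of wild type pigs aged 4 to 5 months and used at the third or the fourth passage. Control cells stayed in DMEM. OIM cells received osteogenic induction medium, to which insulin, 2 mmol/L sodium dihydrogen phosphate and 50 µg/mL ascorbic acid had been added, and bFGF cells received the same OIM with 50 ng/mL bFGF. All groups share the growth of the cells in DMEM with serum and the scraping of endothelial cells from the leaflets before digestion. The labels give 3 days of treatment, whereas the methods of the study give a shorter time before RNA extraction. Each group had 3 libraries. Nothing states that replicates came from different animals, so p-values measure the spread between these libraries, which may be technical.

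RUNX proteins bind DNA through the runt domain together with CBFB. RUNX2 is required for the formation of osteoblasts, RUNX1 is best known from blood formation and is also expressed in skeletal progenitors, and RUNX3 works in lymphocytes, neurons and maturing chondrocytes. SP7 (osterix) acts downstream of RUNX2 in osteoblasts. MSX1, MSX2 and DLX5 are homeobox factors of the neural crest, the skull and the limb that respond to BMP signals. SOX9 is the master factor of cartilage, is needed for heart valve formation, and works with SOX5 and SOX6 on the enhancers of cartilage matrix genes. A rise of RUNX2 in valve interstitial cells is widely used as a sign of osteogenic change. The comparison of OIM with control asks what the osteogenic medium changed, and that of bFGF with OIM what bFGF changed in the presence of that medium.

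The libraries held 46773376 to 67371523 counts on genes, and every bFGF library (at most 48270827) was below every other library (at least 57075793). TMM factors were 1.10 to 1.11 in bFGF and 0.937 to 0.967 elsewhere. With library totals alone, the median of all genes in bFGF against OIM moved from -0.0029 to 0.22 on the log2 scale, and this scaling decides the direction of small differences of bFGF. The summed level of 8 interstitial cell markers was 20430 to 22450 CPM (counts relative to the TMM-scaled library total) in all libraries, and 0 of the 8 were at or under 3 counts in a group. In bFGF against OIM, however, 2 of them were called higher (VIM and POSTN) and 2 lower (COL3A1 and DCN), where 17.7% and 18.4% of all genes were. The summed level of 8 endothelial markers was 20.9 to 24.2 CPM in control and OIM and 36.3 to 38.8 CPM in bFGF, with 6 of 8 called higher in bFGF than in OIM (17.7% of all genes were). None was at 0 in all libraries of a group. That of 6 smooth muscle markers was 9793 to 10300 CPM in control, 10050 to 13320 CPM in OIM, with 2 of 6 called higher than in control (1.49% of all genes were), and 1616 to 1795 CPM in bFGF, with 6 of 6 called lower than in OIM (18.4% of all genes were). Of 5 cardiomyocyte markers, TNNT2 was at 0, and their sum was 7.65 to 9.17 CPM in control, 10.99 to 13.9 CPM in OIM and 6.55 to 8.47 CPM in bFGF. Of the 4 tested, 1 was called higher in OIM than in control (RYR2), where 1.49% of all genes were. In bFGF against OIM 1 was called higher and 1 lower (RYR2), where 17.7% and 18.4% of all genes were. The part of these marker shifts in the results below was not tested, and in bulk RNA fewer cells of a type and less RNA per cell cannot be told apart.

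The 9 genes spanned the whole range from absent to abundant. Per kb of mRNA (the median length of the annotated RefSeq models), the control level was 43.1 ± 0.634 CPM per kb for RUNX1 and 38.9 ± 1.74 for SOX9 (SD, n = 3). These levels lay at percentiles 89.6 and 88.1 of the genes tested. Each percentile given here sets a group mean against the means over all 9 libraries of the tested genes with an mRNA model. RUNX2 followed with 7.05 ± 0.201 CPM per kb, SOX5 with 5.78 ± 0.212, MSX1 with 2.95 ± 0.643 and MSX2 with 1.72 ± 0.160 (SD, n = 3). DLX5 had 0.319 ± 0.116 CPM per kb, over a model of 870 bases that holds coding sequence only, RUNX3 had 0.00807 ± 0.00445 (SD, n = 3), and SP7 had 0 counts in each control library. The libraries of neighbours in this order did not overlap in control. The place of SOX5 depends on its length: the annotation gives it 45 mRNA models, and over the longest (15823 bases) its control level was 3.09 CPM per kb, between the lowest and the highest MSX1 library.

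**Figure D1:**
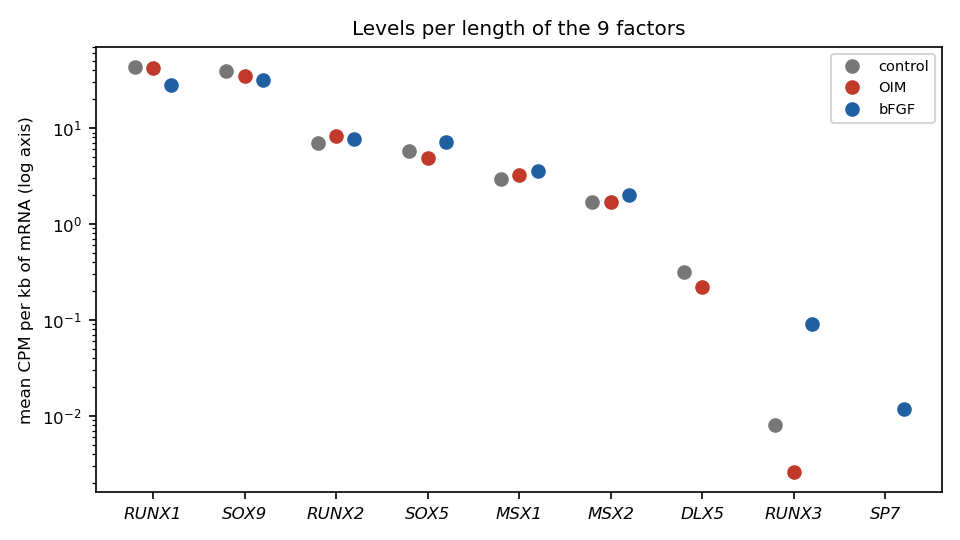
Mean level of each of the 9 genes in CPM per kb of mRNA (log axis) in control (grey), OIM (red) and bFGF (blue), each the mean of 3 libraries. RUNX1 and SOX9 lie between 28.0 and 43.1 CPM per kb, while DLX5, RUNX3 and SP7 stay under 0.32; means of 0 (SP7 in control and OIM, DLX5 in bFGF) cannot be drawn on a log axis.

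The order at the top changed with treatment. In control and OIM, RUNX1 was above SOX9 in each library (41.6 to 43.8 against 34.2 to 40.9 CPM per kb), and in bFGF it was below it (27.5 to 28.7 against 31.0 to 32.7 CPM per kb). This crossing is a comparison within libraries and does not depend on the scaling between them, but it depends on the 2 mRNA lengths used (6095 and 3639 bases).

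Of the 9 genes, 8 had enough counts for testing and SP7 did not. RUNX3 passed only through its bFGF libraries, and DLX5 only through control and OIM libraries, so that a difference for them was part of the way they passed. Between OIM and control, 0 of 8 were called in edgeR's quasi-likelihood test (adjusted p of at most 0.05 and absolute log2 fold change of at least 0.5), where 2.35% of all 13662 genes were called, 1.49% as higher and 0.864% as lower. Without the fold limit 3 of the 8 passed (13.6% of all genes did), at the adjusted and also at the unadjusted p, and with it DESeq2 also called 0. Between bFGF and OIM, 2 of 8 were called higher (RUNX3 and SOX5) and 2 lower (RUNX1 and DLX5), against 36.2% of all genes called in either direction. Between bFGF and control 1 was called higher (RUNX3) and 2 lower (RUNX1 and DLX5), against 39.0%. Without the fold limit 6 of 8 passed in each of these comparisons, where 67.4% and 70.2% of all genes did. The libraries of the 2 groups did not overlap for 3 of 8 in OIM against control (28.7% of all genes). They did not overlap for 7 of 8 in bFGF against OIM (72.1%) and for 6 of 8 in bFGF against control (73.7%). The comparisons share libraries: OIM enters the first 2 and bFGF the last 2. The share of members called was close to that of all genes, so the counts are no result about these 9 genes as a set, and the genes are described individually.

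**Figure D2:**
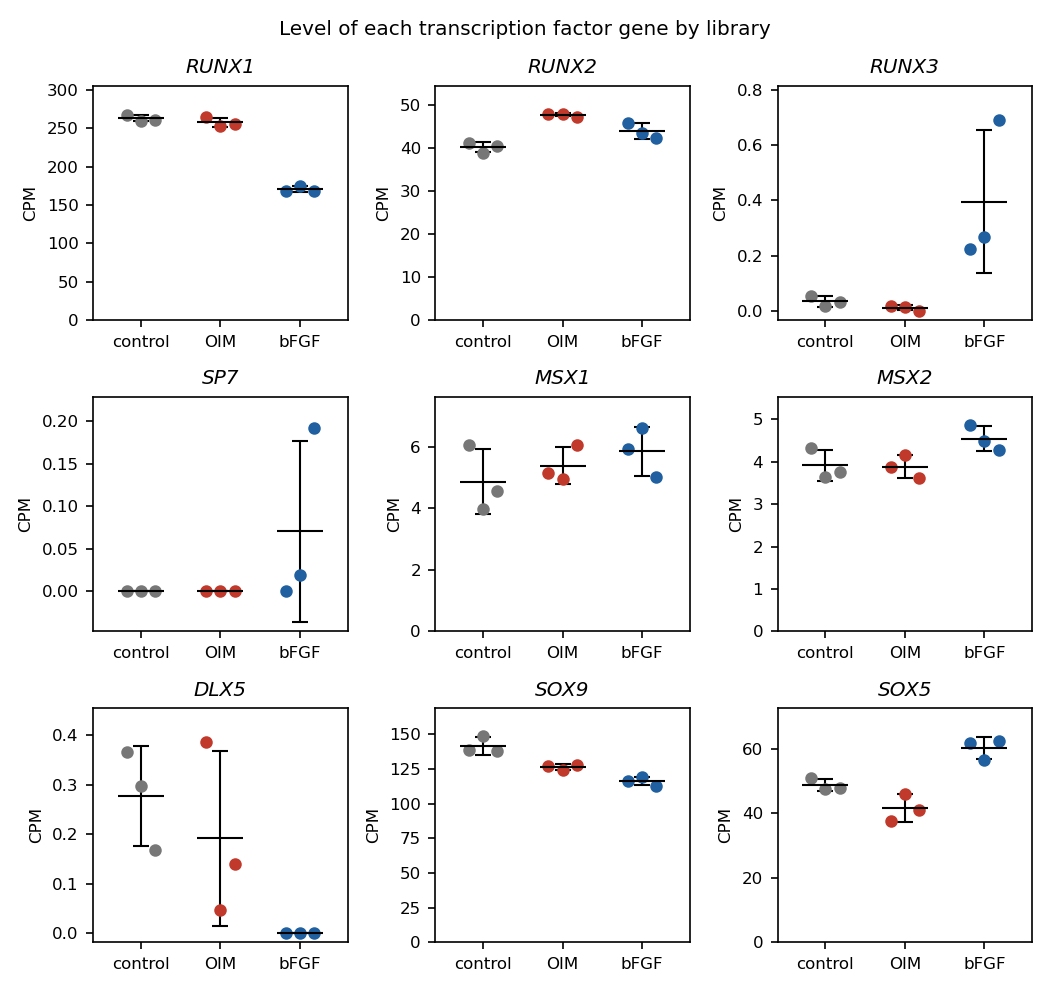
Level of each gene in CPM (vertical axes, linear, each gene on its own scale) in the 3 libraries of control (grey), OIM (red) and bFGF (blue), with the group mean and SD (black). RUNX1 is lower in each bFGF library (at most 175.0 CPM) than in any other (at least 253.2 CPM), RUNX2 is highest in OIM, and RUNX3, SP7 and DLX5 stay under 0.7 CPM.

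RUNX1 (chromosome 13, 198371835 to 198635648, minus strand, Sscrofa11.1) was the most abundant RUNX gene and fell with bFGF. Its level was 267.0, 259.8 and 260.9 CPM in control, 264.5, 253.2 and 255.2 CPM in OIM, and 168.6, 175.0 and 167.6 CPM in bFGF. The bFGF libraries lay far below all others, and control and OIM overlapped. The log2 fold change was -0.60 in bFGF against OIM (standard error 0.035, adjusted p = 7.42e-12 in edgeR's test) and -0.62 in bFGF against control (standard error 0.035, adjusted p = 3.16e-12 in edgeR's test). In OIM against control it was -0.03, with a 95% confidence interval from -0.10 to 0.05. With library totals alone the differences of bFGF shrank to -0.37 and -0.40, under the fold limit, and RUNX1 was then not called, although the adjusted p stayed at 8.03e-09 or below.

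The table also lists circular RNAs, which arise when the end of an exon is spliced back to the start of an earlier exon of the same transcript. Of the 9 genes, only RUNX1 had any, and it had 2. The more abundant circle, chr13:198415894-198442601 on the minus strand, runs from the start of exon 6 to the end of exon 7 of the RUNX1 model with 9 exons. Its junction is shown because linear splicing joins exon 6 to exon 7 in the other order, so that reads over this join are what the circle was counted by. The lower case letters are the last 15 bases of exon 7, and the capitals are the first 15 bases of exon 6, read from Sscrofa11.1.
RUNX1 exon 7 to exon 6: agagtcagatgcaggGGAAAAGCTTCACTC
In the genome, GT follows the exon 7 end and AG precedes the exon 6 start, the usual splice signals. Junction counts were 0, 0 and 3 in control, 0, 5 and 3 in OIM and 0, 0 and 0 in bFGF. The other circle, from exon 4 to exon 6 (chr13:198442497-198468393), had 2 counts in bFGF replicate 1 and 0 in all other libraries. These counts are too low for a comparison between groups. Per the labels, ribosomal RNA was depleted from total RNA, but per the paper's methods RNA was selected by poly-A tails, which circular RNAs lack, so how fully these libraries could hold circles is unknown.

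RUNX2 (chromosome 7, 40106581 to 40353304, plus strand) was higher in OIM than in control by a small amount in each library. It had 41.3, 39.0 and 40.6 CPM in control, 48.0, 48.0 and 47.4 CPM in OIM, and 46.0, 43.7 and 42.5 CPM in bFGF. The OIM libraries lay above all others, and the bFGF libraries lay between the OIM and the control libraries. The log2 fold change in OIM against control was 0.25 (standard error 0.049, adjusted p = 0.00179 in edgeR's test, 95% confidence interval 0.14 to 0.35), so that an increase of the fold limit or more lies outside the interval. It passed the adjusted p without the fold limit, and its adjusted p stayed at 0.0105 or below when single libraries were left out. In bFGF against OIM the difference was -0.12 (95% confidence interval -0.22 to -0.02, adjusted p = 0.0400 in edgeR's test), but it was 0.10 with library totals alone, so its direction depends on the scaling. Its adjusted p in edgeR was past 0.05 in 5 of 6 fits without 1 library, up to 0.149 without bFGF replicate 3.

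RUNX3 (chromosome 6, 82531203 to 82595044, minus strand) was close to absent outside bFGF. Its counts were 3, 1 and 2 in control, 1, 1 and 0 in OIM, and 12, 14 and 36 in bFGF. All bFGF libraries exceeded all others, and bFGF replicate 3 held more counts than the other bFGF libraries together. With control and OIM set to a floor of 3 counts per library, the bFGF mean was 7.70-fold this floor in OIM and 7.66-fold in control. Without bFGF replicate 3 these folds were 4.80 and 4.78. Since only its bFGF libraries brought RUNX3 past the filter on low counts, its calls add nothing to these counts. RUNX3 is also a factor of lymphocytes and myeloid cells, and the summed level of 8 leukocyte markers was 8.86 to 9.56 CPM in bFGF and 14.5 to 17.95 CPM in control and OIM, with 0 of 5 tested called higher and 2 called lower in bFGF than in OIM and CD3E at 0 throughout. Most of that sum was CD14, with 7.11 to 8.04 CPM in bFGF and 11.7 to 14.9 CPM elsewhere. The leukocyte marker ITGAM, too low to test, went the other way, with 3, 4 and 13 counts in bFGF and 0 to 3 elsewhere, and like RUNX3 was highest in bFGF replicate 3; its part in the RUNX3 counts was not tested. Its level in bFGF, 0.0911 ± 0.0596 CPM per kb (SD, n = 3), was at percentile 5.20 of the genes tested.

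Within the RUNX family, the mix of mRNAs shifted from RUNX1 toward RUNX2. In counts per mRNA base, RUNX2 made up 14.1% ± 0.223 of the 3 genes in control, 16.5% ± 0.305 in OIM and 21.6% ± 0.818 in bFGF (SD, n = 3), with no overlap between groups. RUNX1 made up 85.9%, 83.5% and 78.2%, and RUNX3 at most 0.455% in any library. A share within a library needs no scaling between libraries. The step from control to OIM came with a higher RUNX2 level at a like RUNX1 level, and the step from OIM to bFGF with a lower RUNX1 level.

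**Figure D3:**
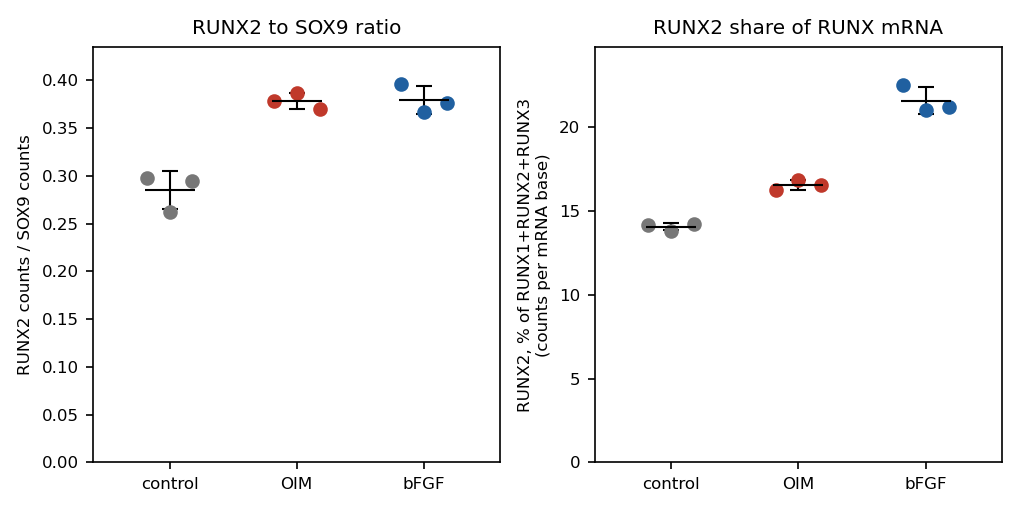
Left, counts of RUNX2 divided by counts of SOX9 in each library; right, RUNX2 as a percentage of RUNX1, RUNX2 and RUNX3 together in counts per mRNA base. Points are libraries of control (grey), OIM (red) and bFGF (blue), and black bars are the mean and SD of 3 libraries; the ratio is 0.262 to 0.298 in control and 0.367 to 0.396 in OIM and bFGF, while the share differs between all 3 groups.

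SP7 (chromosome 5, 18541368 to 18566668, minus strand) had 0 counts in each control and OIM library and 0, 1 and 10 counts in bFGF. A count of 0 allows up to 3 counts, so SP7 was not detectable in control or OIM at this depth. Its bFGF mean rests on bFGF replicate 3, and the mean of bFGF replicates 1 and 2 was under the floor. SP7 was not tested. Without the filter on low counts edgeR gave an adjusted p of 0.0458 for bFGF against OIM, which would be a call, and DESeq2 gave 0.153.

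MSX1 (chromosome 8, 5628381 to 5632375, minus strand) and MSX2 (chromosome 16, 49765587 to 49771745, minus strand) were present at low levels in each library, and neither was called in any comparison. MSX1 had 6.04, 3.98 and 4.57 CPM in control, 5.13, 4.96 and 6.06 CPM in OIM, and 5.93, 6.61 and 5.02 CPM in bFGF. The 3 groups overlapped. MSX2 had 4.33, 3.65 and 3.77 CPM in control, 3.87, 4.16 and 3.62 CPM in OIM, and 4.87, 4.50 and 4.27 CPM in bFGF. Only bFGF and OIM did not overlap for MSX2. They had 207 to 346 counts per library, and their intervals were wide. In OIM against control the 95% confidence interval of the log2 fold change was -0.18 to 0.47 for MSX1 and -0.30 to 0.28 for MSX2. In bFGF against OIM it was -0.20 to 0.45 for MSX1 and -0.07 to 0.52 for MSX2. In bFGF against control it was -0.05 to 0.60 for MSX1 and -0.07 to 0.51 for MSX2. An increase of 0.5 thus lay within the interval of MSX2 in both comparisons of bFGF and of MSX1 in bFGF against control. The parts of counting depth and of the spread between libraries in these widths were not tested.

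DLX5 (chromosome 9, 76639915 to 76643689, minus strand) was low in control and OIM and not detected in bFGF. Its counts were 20, 18 and 10 in control, 21, 3 and 8 in OIM, and 0, 0 and 0 in bFGF. No bFGF library had a count, and control and OIM overlapped widely. With the floor of 3 counts per library, DLX5 was at least 3.35-fold lower in bFGF than in OIM and at least 4.85-fold lower than in control. Without OIM replicate 1, which had the most OIM counts, the bound against OIM was 1.63. Since only control and OIM libraries brought DLX5 past the filter, its calls add nothing to these counts. In fits of bFGF with only 1 other group, it was not among the genes with enough counts. In OIM against control its difference had a 95% confidence interval from -2.03 to 0.91, too wide to give a direction.

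**Figure D4:**
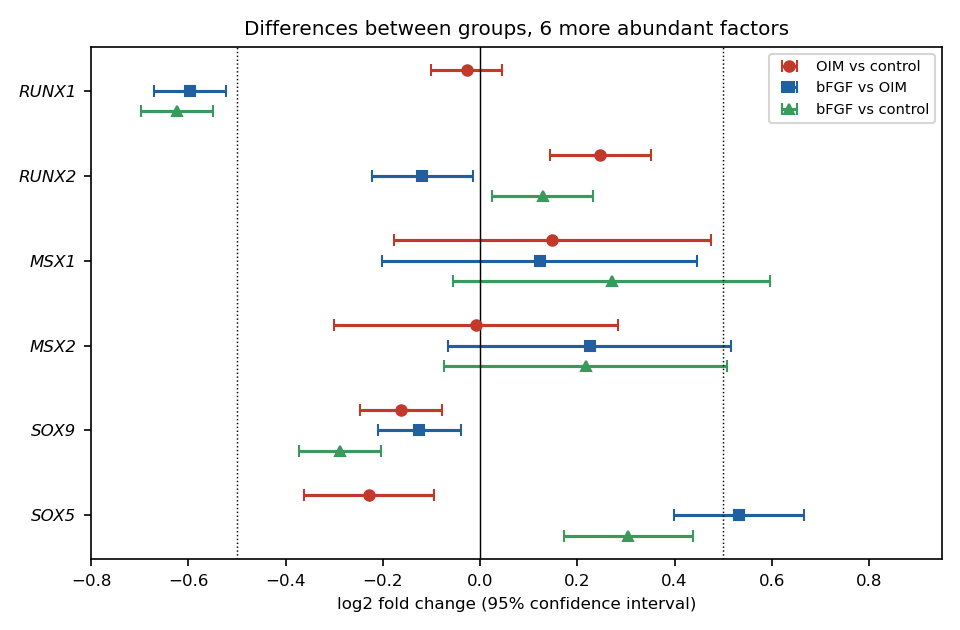
Log2 fold change (horizontal axis) with its 95% confidence interval from edgeR for the 6 genes above 3 CPM in each library, in OIM against control (red circles), bFGF against OIM (blue squares) and bFGF against control (green triangles); dotted lines mark the fold limit of 0.5. RUNX1 lies beyond the limit in both comparisons of bFGF, SOX5 in bFGF against OIM, and MSX1 and MSX2 have the widest intervals.

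SOX9 (chromosome 12, 8642154 to 8647315, minus strand) stayed abundant in all groups. It had 138.4, 148.9 and 137.5 CPM in control, 127.0, 124.3 and 128.0 CPM in OIM, and 116.1, 118.9 and 112.9 CPM in bFGF. The groups did not overlap, with control above OIM and OIM above bFGF. In OIM against control the log2 fold change was -0.16 (standard error 0.040, adjusted p = 0.00886 in edgeR's test), and in bFGF against control it was -0.29 (standard error 0.040, adjusted p = 2.59e-06 in edgeR's test), both under the fold limit. The latter shrank to -0.06 when only library totals were used for scaling. The step from OIM to bFGF was -0.12 (adjusted p = 0.0102 in edgeR's test) with TMM and 0.10 with library totals alone, so the order of OIM and bFGF depends on the scaling.

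SOX5 (chromosome 5, 49159950 to 50166463, plus strand) was called higher in bFGF than in OIM. It had 50.9, 47.6 and 48.0 CPM in control, 37.6, 46.1 and 41.1 CPM in OIM, and 61.8, 56.5 and 62.6 CPM in bFGF. OIM was lowest, bFGF was highest, and no groups overlapped. The log2 fold change in bFGF against OIM was 0.53 (standard error 0.064, adjusted p = 3.36e-07 in edgeR's test), just past the fold limit. Without OIM replicate 1, the lowest library, it was 0.465 and SOX5 was not called. In OIM against control it was -0.23 (adjusted p = 0.0207 in edgeR's test), and with single libraries left out the adjusted p reached 0.122 (without OIM replicate 1). In bFGF against control it was 0.30, and 0.53 with library totals alone, where SOX5 was called.

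The ratio of RUNX2 to SOX9 counts, a common measure of the balance between an osteoblast and a chondrocyte program, was taken within each library. It was 0.298, 0.262 and 0.295 in control, 0.378, 0.387 and 0.370 in OIM, and 0.396, 0.367 and 0.376 in bFGF. OIM and bFGF were each above all control libraries, by 1.33-fold in both cases (two-sided exact permutation test, p = 0.1, the smallest that 3 against 3 libraries allow, and 0.15 after adjustment over 3 comparisons). OIM and bFGF overlapped, with a difference of 0.0053 on the log2 scale (exact permutation test, p = 1.0). The direction of this last difference turned when bFGF replicate 1 (-0.025) or OIM replicate 3 (-0.010) was left out. With 3 libraries a group this exact test cannot reach 0.05.

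Among the partners of these factors, CBFB, TWIST2 and ZNF521 rose with bFGF, and SOX6, NFATC1 and ZBTB16 fell most. Of 20 listed partners and regulators, 17 were tested. In bFGF against OIM 3 were called higher and 6 lower, where 36.2% of all genes were called in either direction. The median log2 fold change was -0.19 where all genes had -0.0029. With library totals alone 5 were called higher and 5 lower in bFGF against OIM, where 3733 and 1694 of 13662 genes were. The median was then 0.03 where that of all genes was 0.22. In OIM against control 0 were called, where 2.35% of all genes were, and 0 with DESeq2. With no fold limit 3 were higher and 1 lower, where 13.6% of all genes passed. At an unadjusted p 1 was called lower, as were 229 of 13662 genes, and 1 was called without control replicate 2 or OIM replicate 2. CBFB, the partner without which RUNX proteins bind DNA weakly, had mean levels in CPM of 79.1 ± 4.49 in control and 81.3 ± 0.817 in OIM, against 121.4 ± 7.74 with bFGF (SD, n = 3). The log2 increase from OIM to bFGF was 0.58 (standard error 0.049, adjusted p = 2.14e-09 in edgeR's test). CBFB and RUNX1 thus differed in opposite directions.

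SOX6, the close relative of SOX5 that pairs with it, fell where SOX5 rose. Its mean levels in CPM were 95.9 ± 1.86 in control and 101.9 ± 13.03 in OIM, against 33.3 ± 1.38 with bFGF (SD, n = 3), and its log2 fold change in bFGF against OIM was -1.61 (standard error 0.069, adjusted p = 5.08e-14 in edgeR's test). TWIST2, a bHLH repressor of RUNX2, and ZNF521, a zinc finger corepressor of RUNX2, rose by 0.90 and 0.68 on the log2 scale. The largest decreases were in ZBTB16 (PLZF), a zinc finger factor of osteogenic cultures, with -3.34, and in NFATC1, a calcineurin-dependent factor that cooperates with SP7 and is needed in valve development, with -2.32. HDAC5 and HEY1, also known as repressors of RUNX2 and named here after their values were seen, were called lower, with -0.52 and -1.07, so that repressors were found in both directions. HDAC5 was just past the fold limit, and the number of partners called lower was 5 with library totals alone, without OIM replicate 2 or without bFGF replicate 3.

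**Figure D5:**
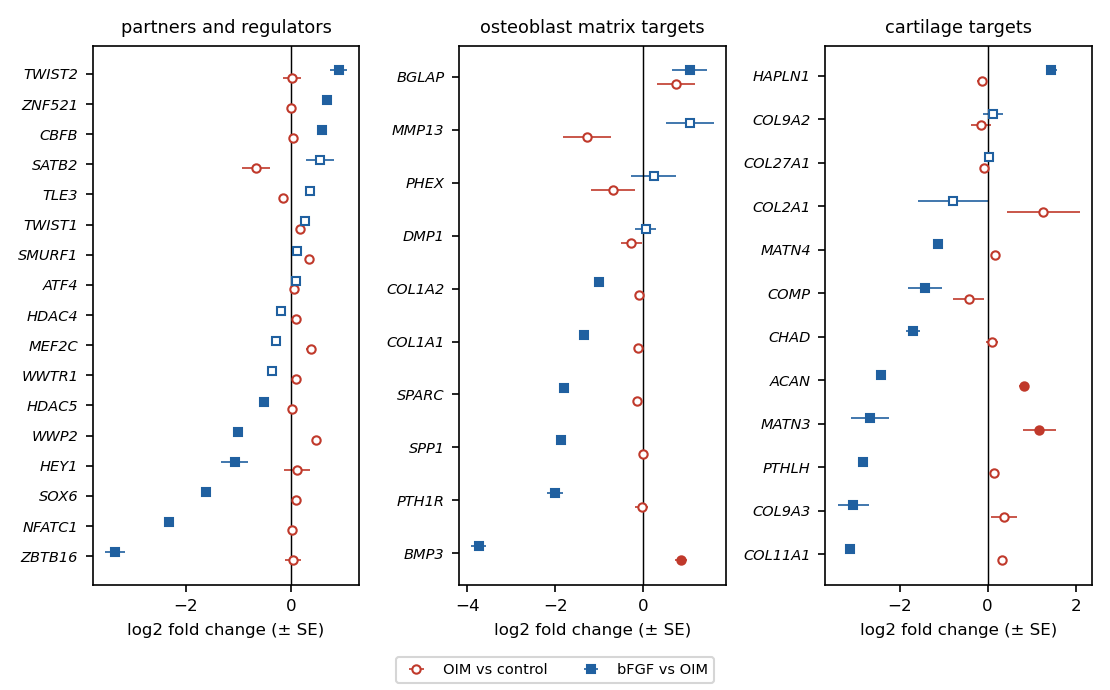
Log2 fold change with its standard error (horizontal axes) of the tested genes in 3 lists, partners and regulators (17), osteoblast matrix targets (10) and cartilage targets (12), in OIM against control (red circles) and bFGF against OIM (blue squares); filled symbols were called. In the target lists most blue symbols lie far below 0, and of the red ones BMP3, ACAN and MATN3 are filled; some open red symbols, such as MMP13 (-1.28) and COL2A1 (1.26), lie as far from 0 with wide errors.

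Among genes known as targets of RUNX2 and SP7 in bone, most of the measurable genes fell with bFGF. Of 16 listed, 10 were tested; in bFGF against OIM 6 were called lower and 1 higher, where 36.2% of all genes were called, and the median log2 fold change was -1.17. With library totals alone 2 were called higher and 6 lower, where 3733 and 1694 of 13662 genes were, with a median of -0.95. In OIM against control 1 was called higher (BMP3), where 1.49% of all genes were. SPP1 (osteopontin), which binds mineral, had mean levels in CPM of 35.1 ± 2.01 in control and 35.0 ± 0.872 in OIM, against 9.63 ± 0.665 with bFGF (SD, n = 3). SPARC, a collagen-binding matrix protein that fibroblasts also make, fell by 1.94 on the log2 scale between control and bFGF. PTH1R, the receptor of parathyroid hormone, had a log2 fold change of -2.00, and BMP3, a BMP antagonist of bone, one of -3.74 after a rise of 0.85 in OIM against control.

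Of this list, BGLAP, ALPL and IBSP were low. DMP1 had 89 to 195 counts per library and PHEX 13 to 53, and neither was called in OIM against control or in bFGF against OIM. BGLAP (osteocalcin) had 15, 19 and 23 counts in control, 24, 49 and 25 in OIM and 72, 74 and 35 in bFGF. It was the 1 gene of this list called higher in bFGF against OIM, by 1.06 ± 0.40 (log2 fold change and standard error; adjusted p = 0.0232 in edgeR's test), but bFGF and OIM overlapped, and the call was lost without OIM replicate 1, OIM replicate 3, bFGF replicate 1 or bFGF replicate 2 (adjusted p up to 0.108). In bFGF against control BGLAP was called with 1.81 (adjusted p = 0.000709 in edgeR's test). ALPL, the alkaline phosphatase of mineralizing cells, had 1 to 15 counts per library and IBSP (bone sialoprotein) 0 to 4; neither could be tested. In all 3 groups SP7, ALPL and IBSP were thus near or under the floor or too low to test, while RUNX2 lay near the middle of the genes tested (percentile 49.8 in control).

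Among the cartilage targets of SOX9, SOX5 and SOX6, most of the measurable genes also fell with bFGF, whereas SOX9 itself was not called. Of 18 listed, 12 were tested; 8 were called lower and 1 higher in bFGF against OIM, where 18.4% of all genes were called lower and 17.7% higher, and the median log2 fold change was -1.56 (-1.34 with library totals alone, with the same counts of calls). ACAN, the core protein of aggrecan, had mean levels in CPM of 32.6 ± 1.33 in control and 57.5 ± 11.9 in OIM, against 10.7 ± 1.58 with bFGF (SD, n = 3). It was called higher in OIM against control with 0.82 (standard error 0.11, adjusted p = 3.56e-05 in edgeR's test) and lower in bFGF against OIM with -2.42 (standard error 0.12, adjusted p = 6.30e-13 in edgeR's test). OIM replicate 2 stood apart, with 43.9 CPM of ACAN against 65.4 and 63.3 CPM in OIM replicates 1 and 3, and it was also lowest of OIM in BMP3 (14.1 against 23.6 and 21.7 CPM) and in the smooth muscle marker MYH11 (181.9 against 325.2 and 336.7 CPM). MYH11 was itself called higher in OIM than in control, by 1.13 on the log2 scale, and its part in the values of ACAN and BMP3 was not tested. Without OIM replicate 2 the difference of ACAN in OIM against control was 0.98. ACAN was thus called higher in OIM, where SOX9 and SOX5 were below their control libraries.

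The largest decreases of the cartilage list were in COL11A1, a fibrillar collagen chain, with -3.13 on the log2 scale, in COL9A3, a chain of collagen IX, with -3.05, and in PTHLH, the hormone that restrains chondrocyte hypertrophy, with -2.84. HAPLN1, which links aggrecan to hyaluronan, was the 1 gene called higher, from 6.98 ± 1.48 CPM in OIM to 19.0 ± 0.558 CPM in bFGF (SD, n = 3). MATN3, a cartilage matrix protein, was called higher in OIM against control (1.17, adjusted p = 0.0447 in edgeR's test), and this call was lost with the replicate block (adjusted p = 0.0772), with no filter on low counts (adjusted p = 0.0566) and without any 1 library except OIM replicate 2 (up to 0.183). COL2A1, the defining collagen of cartilage, had 1 to 25 counts per library and was not called. SOX9 lay at percentile 85.3 or above in each group.

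The genes whose levels were most like those of each factor over the 9 libraries were named by Pearson's r of log2 CPM, as a description. For RUNX1 they were SH3D19 (r = 0.9986), KDELR3 (0.9985) and the BMP target ID3 (0.9983), each lower in bFGF. For SOX9 they were IGDCC4 (0.9927), DNAJC18 (0.9815) and KIAA1755 (0.9811), and for SOX5 HACD3 (0.9921), USP3 (0.9902) and MPDZ (0.9816). For RUNX2 they were EIF3M (0.9680), TM7SF2 (0.9496) and PARP11 (0.9433), all highest in OIM. The values for MSX1 (TM2D1, VPS29 and FCF1) and MSX2 (C2H19orf38, PTRHD1 and YOD1) were 0.917 to 0.958. All these points share the 9 libraries, their grouping and their scaling.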

How the data were processed

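The study sequenced RNA of PVICs in 3 groups of 3 libraries. Per the paper, the authors trimmed reads with Cutadapt and aligned them to susScr11 with STAR, whereas the submitters' processing notes name Trimmomatic, HISAT2, StringTie and Sscrofa11.1, which is the same assembly. The counting program and its strand setting are not given in the sources used here, so reads of overlapping genes may be shared. The deposited table holds counts that were not normalized: whole-number counts for 19535 gene rows and 6179 circular RNAs, and estimated counts, which need not be whole, for 9888 non-coding transcripts. Of the circular RNAs, 5246 had both ends at annotated exon boundaries of Sscrofa11.1. Non-coding transcripts could be placed only by a RefSeq ID, so those with Ensembl or assembly IDs were not placed. None of those placed lay at or within 5 kb of the 9 genes. A pair of gene rows shares a symbol that a spreadsheet had turned into a date, and no such row is among the 9 genes or the lists. A further 19 columns were empty and not used.

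Gene counts were tested with edgeR 4.0.16 (limma 3.58.1, R 4.3.3): filterByExpr, TMM, quasi-likelihood fit on 3 groups with 6 residual degrees of freedom, and Benjamini-Hochberg adjustment over 13662 genes. Genes were called where the adjusted p did not exceed 0.05 and the log2 fold change was 0.5 or more in size, as in the paper's methods. Standard errors are the log2 fold change divided by the square root of F, and intervals are at 95%. Where all libraries of a group had 3 counts or fewer, each was set to this floor. The resulting folds allow for counting error in a group of 0 counts only. They leave out the counting error of the other group and the spread between libraries. Groups with 1 to 3 counts could lie above the floor. CPM values use TMM-scaled library sizes. The fit was checked on simulated counts. Gene lengths came from the RefSeq annotation of Sscrofa11.1. Sequence at the gene starts and at the circle junction was read from the Sscrofa11.1 genome, and no protein sequence was used.

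The 9 genes and the gene lists were chosen with earlier results of these data known. From the lists, CBFB, SOX6, ALPL, BGLAP, IBSP, SPP1, COL2A1 and ACAN were always named, with up to 3 called genes of largest change per list, comparison and direction provided that the higher group averaged 10 counts or more. For factors of at least 1 CPM the 3 genes of highest r were named. Alternatives were DESeq2 1.42.0, other scalings and filters, fits on 2 groups, a replicate block, other limits and leaving out each library. As a check of pairing, libraries with the same replicate number had deviations from their group means with correlations of -0.032 to 0.0035 over 9 pairs.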

Additional observations from a re-analysis of the deposited data

How the results depend on the processing

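RUNX1 and SOX5 kept their direction in bFGF against OIM under every alternative that gave a value. The number called higher in bFGF against OIM was 2, with 1 under a filter of 1 CPM in 3 libraries, 3 with no filter on low counts (SP7 added) and a range of 1 to 2 with single libraries left out. The number called lower was 2, with 1 under library totals alone, under that filter and in fits on only the 2 groups compared, and 4 with no fold limit. In bFGF against control, 1 was called higher, with 2 under library totals alone or with no filter on low counts (SP7), 0 under the filter of 1 CPM and 3 with no fold limit; 2 were called lower, with 1 under library totals alone, the filter of 1 CPM or the fit on 2 groups and 3 with no fold limit. In OIM against control no fold limit gave 1 higher and 2 lower. With library totals alone RUNX2 and SOX9 turned to 0.10 and 0.097 in bFGF against OIM. With single libraries left out, MSX2 in OIM against control ranged from -0.060 to 0.069, SPP1 there from -0.036 to 0.042, and the log2 difference of the RUNX2 to SOX9 ratio between bFGF and OIM from -0.025 to 0.029. SPP1 in OIM against control was 0.0025 with DESeq2 and 0.0019 with median-of-ratios size factors. Except where a filter or a limit decided which genes could be called, the cause of these changes was not tested.

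The numbers of replicates pair no libraries: 0 of 9 correlations passed 0.1. The replicate block left the calls of the 9 genes as they were, with RUNX1 in bFGF against OIM at -0.60, and took from the calls of the lists MATN3 in OIM against control. Counting depth limits RUNX3, SP7 and DLX5, whose values rest on at most 36 counts per library.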

Other observations

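RUNX3, SP7 and DLX3, 3 bone factors with few counts, each stood highest in bFGF replicate 3, a pattern noticed after the values were seen. RUNX3 had 36 counts in bFGF replicate 3 against 12 and 14 in the other bFGF libraries, SP7 had 10 against 0 and 1, and DLX3, a homeobox factor of bone and skin chosen here after its values were seen, had 9 against 1 and 3. Other bone genes with few counts went the other way in that library: BGLAP had 35 counts against 72 and 74, and MMP13 10 against 22 and 22. DLX3 had 0 counts in each control library and 1, 4 and 0 in OIM. The total of bFGF replicate 3, 46773376 counts, was the lowest of all libraries, and its summed endothelial marker level of 38.8 CPM the highest; their part in these counts was not tested. DLX6, the neighbour and relative of DLX5, also chosen after its values were seen, had 0 counts in all 9 libraries, which allows up to 3 counts in each.

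The sequence at the annotated gene starts differed among the factors. In windows of 250 bases before to 50 bases after the start, the median GC content of 25473 genes was 56.7%. MSX1 had 77.7%, SOX9 68.3%, RUNX3 65.7%, DLX5 64.3% and SOX5 62.7%, while RUNX2 had 47.7%, MSX2 45.7%, RUNX1 41.3% and SP7 40.7%. The window covers only the outermost annotated start of each gene. RUNX1 and RUNX2 each have more than 1 promoter, and the annotation also gives several mRNA models to RUNX3 (2), SP7 (3) and SOX5 (45). These gene counts do not tell the starts of a gene apart.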
